A study of Homo sapiens with 14 samples.

Results

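Fibronectin and the matricellular proteins are secreted proteins that cells lay down around themselves. This account covers 9 of their genes, FN1, VCAN, TNC, SPARC, SPOCK1, TGFBI, THBS1, CCN1 and CCN2, out of 18129 genes measured in PANC-1 cells, a long-used line from a human carcinoma of the pancreas. Probe sets that name exactly 1 gene were taken for these symbols, which gave 44 of 49193 probe sets, and the brightest one of each gene, by its mean level on the 14 arrays, was followed whatever that level was. FN1 had 8 probe sets, VCAN 9, TNC 4, SPARC 8, SPOCK1 1, TGFBI 4, THBS1 5, CCN1 2 and CCN2 3, and 0 of the probe sets that name several genes named a member.

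Every group spent 24 h in medium with 1% serum before a treatment of 48 h. The groups were TGFb1 at 5 ng/ml with acriflavine at 2.5 µM (3 arrays), TGFb1 at 5 ng/ml with sodium valproate at 2 mM (3 arrays), TGFb1 at 5 ng/ml alone (4 arrays) and vehicle control (4 arrays). They are called acriflavine, valproate, TGFb1 and control arrays here, and every acriflavine and valproate array had TGFb1 as well. The labels describe biological replicates of a single cell line, numbered 1 to 3 or 1 to 4. None of the arrays had acriflavine or valproate without TGFb1. An effect that either agent has by itself therefore cannot be told apart from an effect on the response to TGFb1. Acriflavine is an acridine dye mixture with affinity for nucleic acids, and valproate inhibits histone deacetylases.

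Fibronectin is a large glycoprotein that cells assemble into fibrils through integrins, and those fibrils give other matrix proteins a place to bind. Matricellular proteins, such as thrombospondins, tenascins, SPARC and the CCN proteins, build little structure of their own and instead change how cells attach, spread and receive growth factors. TGFb1 is a textbook inducer of this set in fibroblasts and carcinoma cells. It acts partly through SMAD transcription factors, while CCN1 and CCN2 are also standard targets of the co-activators YAP and TAZ, which bind DNA through TEAD factors.

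Levels are log2 intensities, on which a step of 1 is a 2-fold change, and levels are not compared between genes, since probe sets differ in how strongly they bind. Differences are between group means on the log2 scale ± the standard error (SE) of a limma fit over all 14 arrays and 18129 genes. A gene is said to have risen or fallen where its adjusted p was under 0.05. In cultures read in bulk, fewer cells of a kind and less RNA per cell cannot be told apart. The number of arrays limits the precision.

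On GRCh38.p14, RefSeq places SPOCK1 (chr5:136975298-137499326), TGFBI (chr5:136028988-136063818), SPARC (chr5:151661096-151686915) and VCAN (chr5:83471744-83582302) on chromosome 5. FN1 lies at chr2:215360865-215436068, THBS1 at chr15:39581079-39599466, CCN1 at chr1:85580761-85583950, CCN2 at chr6:131948176-131951372 and TNC at chr9:115019575-115118157. Windows of 300 bases from 250 before to 50 after the gene start were given by RefSeq (GRCh38.p14) for 7 of the 9 genes, and not for SPOCK1 and CCN1. Both strands were searched for GGAATG (the core bound by TEAD), CAGAC (a core bound by SMAD), TGANTCA (bound by AP-1) and TGACGTCA (the cAMP response element). No match overlapped another. CCN2 and THBS1, the members that both rose under TGFb1 and held the TEAD and SMAD letters, are shown with FN1, which rose under valproate and held the cAMP response element. Capitals mark the matches, and each line runs 5′ to 3′ along the gene.
CCN2: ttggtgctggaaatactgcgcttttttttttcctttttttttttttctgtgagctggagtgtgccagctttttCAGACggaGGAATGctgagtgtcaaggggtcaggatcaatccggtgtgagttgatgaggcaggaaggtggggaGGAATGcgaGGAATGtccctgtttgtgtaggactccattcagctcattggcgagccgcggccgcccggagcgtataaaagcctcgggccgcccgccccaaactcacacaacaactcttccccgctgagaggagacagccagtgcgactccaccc
THBS1: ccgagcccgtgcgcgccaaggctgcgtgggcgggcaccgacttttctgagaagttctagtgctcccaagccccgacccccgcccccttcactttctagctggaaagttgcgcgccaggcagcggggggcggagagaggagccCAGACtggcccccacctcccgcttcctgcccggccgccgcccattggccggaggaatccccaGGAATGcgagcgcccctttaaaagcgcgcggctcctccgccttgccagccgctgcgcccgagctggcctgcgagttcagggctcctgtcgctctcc
FN1: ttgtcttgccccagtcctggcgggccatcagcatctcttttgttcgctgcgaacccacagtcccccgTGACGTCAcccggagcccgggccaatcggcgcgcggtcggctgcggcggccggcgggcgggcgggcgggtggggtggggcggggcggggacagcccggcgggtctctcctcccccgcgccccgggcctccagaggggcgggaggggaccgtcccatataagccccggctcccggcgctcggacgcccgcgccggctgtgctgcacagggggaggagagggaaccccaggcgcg
The CCN2 window lies on the minus strand of chromosome 6 (chr6:131951323-131951622) and holds the TEAD letters at -169, -104 and -95 and the SMAD letters at -177 from the gene start. The THBS1 window lies on the plus strand of chromosome 15 (chr15:39580829-39581128), with the TEAD letters at -46 and the SMAD letters at -108, and the FN1 window on the minus strand of chromosome 2 (chr2:215436019-215436318), with the cAMP response element at -183. SPARC, which did not rise under TGFb1, held the TEAD and the SMAD letters once each, and TNC, which did not rise either, the SMAD letters once. TGFBI, which rose under TGFb1, and VCAN, which rose under valproate, held none of these letters. Of 35116 promoters of the same length, 14% held the TEAD letters, 45.3% the SMAD letters, 7.71% those of AP-1 and 1.85% the cAMP response element. A match describes the letters and is neither a binding site nor a cause.

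The epithelial keratins KRT8, KRT18 and KRT19 were bright in the cells (means over all arrays of 13.5, 13.7 and 12.5), and 6 of 6 epithelial markers, 3 of 9 fibroblast, 2 of 6 leukocyte, 2 of 4 hepatocyte and 0 of 5 endothelial markers lay above the level of 6.88 that parts off the dimmest 40% of genes. The array medians lay between 7.67 and 7.77. Of the 14 arrays 3 stood apart: TGFb1 replicates 4 and 2 and control replicate 4 departed from their group means with an SD over all genes of 0.332, 0.232 and 0.230, and the other 11 arrays with one of 0.0831 to 0.146. Replicate 4 was the highest array in both the TGFb1 and the control group for 6 of the 9 genes (FN1, SPOCK1, SPARC, TGFBI, THBS1 and TNC), against 21.1% of all genes. It was the lowest in both for CCN1 and for 23.8% of all genes. Leaving out TGFb1 replicate 2 changed 0 of the 54 calls of the 9 genes in the 6 comparisons, and leaving out both replicates 4 changed 13 of them, which are named with the results.

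TGFb1 raised 4 of the 9 genes and lowered 0: SPOCK1, TGFBI, THBS1 and CCN2 rose, where 11.1% of all genes changed, 5.03% rising and 6.05% falling (limma). At an unadjusted p under 0.05, 6 members were higher and 0 lower. No share of all genes was counted at an unadjusted p, here or below, so counts at that threshold cannot be set against the shares given. With the replicate number as a block FN1 and VCAN rose too, which made 6 of 9, where 18.3% of all genes changed. Of the 6 epithelial markers 4 fell and 0 rose with TGFb1, with a mean level of 10.5 to 10.7 in TGFb1 arrays and 11.4 to 11.9 in control arrays, and CDH1 averaged 6.58 in TGFb1 arrays and 8.98 in control arrays. Of the 9 fibroblast markers THY1 (0.95) and COL3A1 (0.73) rose and 0 fell, and their mean level was 5.55 to 5.80 in TGFb1 arrays and 5.39 to 5.47 in control arrays. The part of these markers in the rise of the 4 genes was not tested. Acriflavine with TGFb1 against TGFb1 alone lowered SPOCK1 and TGFBI and raised 0 of the 9, where 28.7% of all genes changed, 16.4% rising and 12.3% falling (at an unadjusted p under 0.05, 1 member was higher and 2 lower). With the replicate number as a block THBS1 rose as well, where 35.5% of all genes changed, but the pairing of these arrays was weak. Valproate with TGFb1 against TGFb1 alone raised FN1 and VCAN and lowered 0, where 21.7% of all genes changed, 11.5% rising and 10.2% falling (at an unadjusted p under 0.05, 2 members were higher and 1 lower). The median difference of the 9 genes was 0.43 for TGFb1 against control, -0.26 for acriflavine against TGFb1 and 0.21 for valproate against TGFb1, and the medians of all genes were 0.021, -0.0021 and -0.024. With each array centred on its median, the share of all calls that were rises was 35.9% for valproate against TGFb1 (53.0% without) and 41.0% for valproate against control (51.4% without). The comparisons of acriflavine, valproate and control with TGFb1 share the TGFb1 arrays, so their values are not independent of one another.

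**Figure D1:**
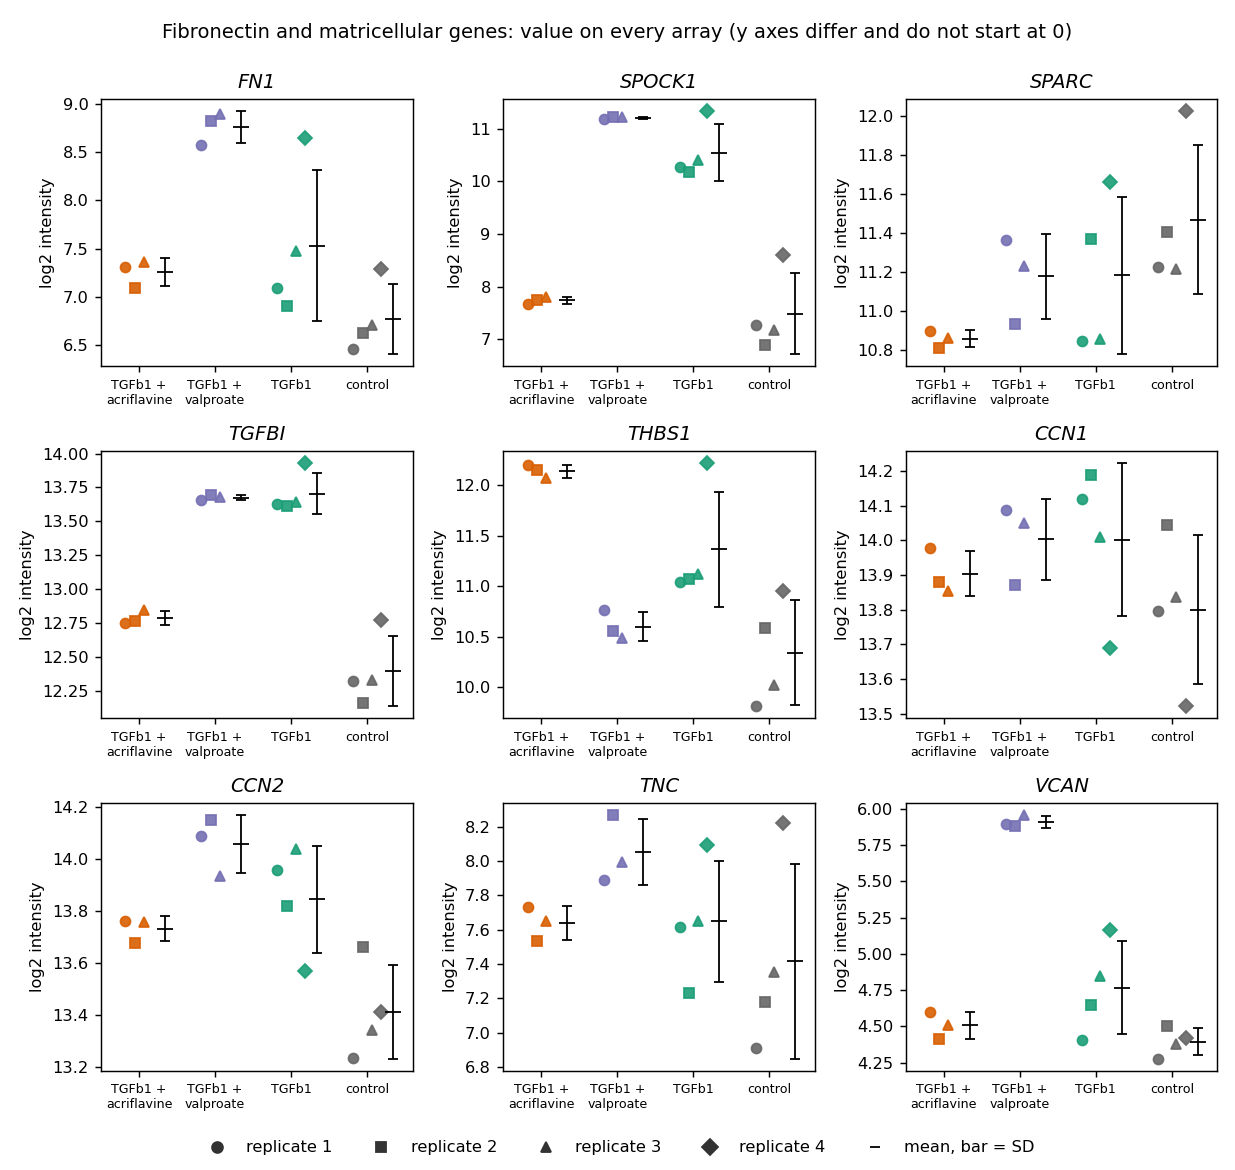
Level of each of the 9 genes on every array (log2 intensity; y axes differ between panels and do not start at 0), by group from left to right: TGFb1 with acriflavine, TGFb1 with valproate, TGFb1 alone and control. Symbols give the replicate number and bars the mean with SD. In the SPOCK1 and TGFBI panels all TGFb1 and valproate arrays lie above all acriflavine and control arrays. The diamonds of replicate 4 lie apart from replicates 1 to 3 in most panels.

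FN1 encodes fibronectin. It read 7.31, 7.09 and 7.36 in acriflavine replicates 1 to 3, 8.58, 8.82 and 8.89 in valproate replicates 1 to 3, 7.09, 6.90, 7.48 and 8.65 in TGFb1 replicates 1 to 4 and 6.46, 6.62, 6.71 and 7.29 in control replicates 1 to 4. The valproate arrays were the brightest as a group, but TGFb1 replicate 4 reached into their range, and the TGFb1 and control arrays overlapped. FN1 rose by 1.24 ± 0.316 with valproate against TGFb1 (adjusted p = 0.0108, or 0.0573 with these groups fitted alone), a 2.35-fold higher level, and by 2.00 ± 0.316 with valproate against control (adjusted p = 0.000268). TGFb1 against control came to 0.76 ± 0.293 and did not pass (adjusted p = 0.123).

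Within replicates, FN1 was higher with TGFb1 than in control by 0.63, 0.28, 0.77 and 1.36 in replicates 1 to 4. With the replicate number as a block the difference of 0.76 passed (adjusted p = 0.00127), and without both replicates 4 it was 0.56 and passed (adjusted p = 0.00926). Acriflavine against TGFb1 gave -0.27 ± 0.316 (95% interval -0.95 to 0.40, adjusted p = 0.6), and the sign turned without TGFb1 replicate 4 (0.10, adjusted p = 0.726) and with the block (0.0015, adjusted p = 0.995). The order of FN1 levels was valproate (8.77 ± 0.166, SD, n = 3), TGFb1 (7.53 ± 0.786, n = 4), acriflavine (7.26 ± 0.144, n = 3) and control (6.77 ± 0.364, n = 4), with a passed test between the brightest pair of neighbours and none between TGFb1, acriflavine and control in turn. Acriflavine against control was 0.49 ± 0.316 (adjusted p = 0.292), and it passed without TGFb1 replicate 4 (adjusted p = 0.0383) and without both replicates 4 (0.66, adjusted p = 0.000973).

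All 8 FN1 probe sets were higher with valproate than with TGFb1 alone, by 0.07 to 1.84, and 6 of them passed when each probe set was tested. For TGFb1 against control all 8 were higher as well, by 0.03 to 1.68, and 3 passed. The brightest probe set, on which the values above rest, was not among those 3.

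VCAN encodes versican, a large proteoglycan that binds hyaluronan. Its probe set read 4.60, 4.41 and 4.51 in acriflavine arrays, 5.89, 5.88 and 5.96 in valproate arrays, 4.41, 4.65, 4.85 and 5.16 in TGFb1 arrays and 4.28, 4.50, 4.38 and 4.42 in control arrays. Every valproate array lay above every other array, and the other groups overlapped. VCAN rose by 1.14 ± 0.134 with valproate against TGFb1 (adjusted p = 2.42e-05) and by 1.52 ± 0.134 against control (adjusted p = 1.15e-06). It was among the dimmest 14.2% of genes, below the level of 6.88, so the size of its change near the floor of the array is uncertain.

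TGFb1 against control was 0.37 ± 0.124 for VCAN and did not pass (adjusted p = 0.0688). It passed with the replicate number as a block (0.37, adjusted p = 0.0254) and without TGFb1 replicate 1 (0.49, adjusted p = 0.0104). Acriflavine against TGFb1 was -0.26 ± 0.134 (adjusted p = 0.176), and -0.38 without TGFb1 replicate 1, where it passed (adjusted p = 0.0268). In order, VCAN levels were 5.91 ± 0.0391 with valproate, 4.77 ± 0.319 with TGFb1, 4.51 ± 0.0917 with acriflavine and 4.39 ± 0.0924 in control, and only the step from valproate to TGFb1 passed. Of 9 VCAN probe sets, 7 rose with valproate against TGFb1 and 9 had the same sign, from 0.02 to 1.14.

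Fibroblast and stellate cell markers were read beside the FN1 and VCAN results. Of 9 such markers 2 rose and 1 fell with valproate against TGFb1, where 11.5% of all genes rose and 10.2% fell. LUM, the collagen-binding proteoglycan lumican, averaged 6.14 in valproate arrays and 3.51 in TGFb1 arrays (2.63 ± 0.124), and THY1, a surface glycoprotein of fibroblasts and some carcinoma cells, averaged 9.83 and 8.43 in the same groups (1.40 ± 0.188). COL3A1, a chain of type III collagen, fell by 0.94. The mean level of the 9 markers was 5.96 to 6.07 in valproate arrays and 5.55 to 5.80 in TGFb1 arrays. Over all arrays THY1 (8.48), ACTA2 (7.13) and COL3A1 (7.10) lay above the level of 6.88, and PDGFRA, PDGFRB, DCN, LUM, FAP and DPT below it, with means of 3.69 to 6.32. Of the 6 epithelial markers 2 rose and 0 fell with valproate, with a mean level of 10.8 to 11.1 in valproate arrays and 10.5 to 10.7 in TGFb1 arrays. The part of these markers in the FN1 and VCAN differences was not tested.

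TNC encodes tenascin-C, a glycoprotein that weakens the hold of cells on fibronectin. It read 7.73, 7.54 and 7.65 in acriflavine arrays, 7.89, 8.27 and 8.0 in valproate arrays, 7.62, 7.23, 7.65 and 8.09 in TGFb1 arrays and 6.91, 7.18, 7.35 and 8.22 in control arrays. Control replicate 4 was brighter than every array except valproate replicate 2, so every group overlapped with control. TNC passed in 0 of the 6 comparisons with all arrays (limma): valproate against TGFb1 was 0.40 ± 0.25 (95% interval -0.13 to 0.94), valproate against control 0.64 ± 0.25 (0.10 to 1.17, adjusted p = 0.081), TGFb1 against control 0.23 ± 0.231 (-0.26 to 0.73) and acriflavine against TGFb1 -0.0096 ± 0.25 (-0.54 to 0.53).

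TNC passed under some other settings. With all arrays and the mean of its probe sets, valproate against control was 0.46 and passed (adjusted p = 0.0295). Without control replicate 4, valproate against control was 0.90 and passed (adjusted p = 0.00196), and without TGFb1 replicate 4 it passed at 0.64 (adjusted p = 0.0418). Without both, valproate against TGFb1 was 0.55 (adjusted p = 0.00491), valproate against control 0.90 (adjusted p = 7.91e-05), acriflavine against control 0.49 (adjusted p = 0.00826) and acriflavine against valproate -0.41 (adjusted p = 0.0196), all of which passed. The order of group means was valproate (8.05 ± 0.193), TGFb1 (7.65 ± 0.354), acriflavine (7.64 ± 0.0988) and control (7.42 ± 0.566), with no passed test between neighbours. Of the 4 TNC probe sets, 2 rose with valproate against control when each was tested.

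SPOCK1 encodes testican, a secreted proteoglycan related to SPARC, and of the 9 genes it had the largest difference in 4 of the 6 comparisons, THBS1 leading for acriflavine against control and FN1 for valproate against TGFb1. It read 7.68, 7.75 and 7.81 in acriflavine arrays, 11.18, 11.21 and 11.22 in valproate arrays, 10.26, 10.17, 10.40 and 11.34 in TGFb1 arrays and 7.28, 6.89, 7.18 and 8.61 in control arrays. All TGFb1 and valproate arrays lay above all acriflavine and control arrays. SPOCK1 rose by 3.06 ± 0.309 with TGFb1 against control (adjusted p = 1.26e-05), an 8.32-fold higher level, and by 3.72 ± 0.334 with valproate against control (adjusted p = 1.44e-06).

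Acriflavine with TGFb1 lowered SPOCK1 against TGFb1 alone (-2.80 ± 0.334, adjusted p = 1.94e-05), a 6.95-fold lower level, in every array. Against control the acriflavine arrays differed by 0.26 ± 0.334 (95% interval -0.46 to 0.97, adjusted p = 0.642), and control replicate 4 lay above all 3 of them. Without both replicates 4 this difference was 0.63 and passed (adjusted p = 9.28e-05), and TGFb1 against control was 3.16 (adjusted p = 2.21e-11). Within replicates, TGFb1 minus control was 2.98, 3.29, 3.23 and 2.73.

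Valproate against TGFb1 was 0.66 ± 0.334 for SPOCK1 and did not pass (adjusted p = 0.198). It passed without control replicate 4 (0.66, adjusted p = 0.0385), without TGFb1 replicate 4 (0.92, adjusted p = 0.0285) and without both (0.92, adjusted p = 3.86e-06). SPOCK1 levels ran from valproate (11.2 ± 0.0219) and TGFb1 (10.5 ± 0.537) to acriflavine (7.75 ± 0.0667) and control (7.49 ± 0.764), and among neighbours the step from TGFb1 to acriflavine passed. A single probe set measured SPOCK1, so no other can be set beside it.

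SPARC, a glycoprotein that binds collagen, did not rise under TGFb1. It read 10.90, 10.81 and 10.86 in acriflavine arrays, 11.37, 10.94 and 11.23 in valproate arrays, 10.84, 11.37, 10.86 and 11.66 in TGFb1 arrays and 11.23, 11.40, 11.22 and 12.03 in control arrays. Control held the highest group mean (11.5 ± 0.383), before TGFb1 (11.2 ± 0.403), valproate (11.2 ± 0.22) and acriflavine (10.9 ± 0.0446), and no pair of neighbours passed. TGFb1 against control was -0.29 ± 0.198 (95% interval -0.71 to 0.14, adjusted p = 0.444).

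SPARC fell with acriflavine against control (-0.61 ± 0.214, adjusted p = 0.0417), with all 3 acriflavine arrays below all control arrays, and 7 of its 8 probe sets fell when each was tested. The call was narrow. It was lost without acriflavine replicate 1 (-0.63, adjusted p = 0.0897), 2 (-0.59, 0.116) or 3 (-0.61, 0.0963), without control replicate 2 (-0.63, 0.0643) or 4 (-0.42, 0.108) and without valproate replicate 3 (-0.61, 0.0543). Without both replicates 4 it passed (-0.42, adjusted p = 0.0195). Against TGFb1 alone the acriflavine difference was -0.33 ± 0.214 (adjusted p = 0.309) and that of valproate -0.0054 ± 0.214 (-0.46 to 0.45).

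TGFBI, a secreted protein with fasciclin domains that TGFb is known to induce, rose with TGFb1 and was lower when acriflavine was added. It read 12.75, 12.77 and 12.85 in acriflavine arrays, 13.66, 13.69 and 13.68 in valproate arrays, 13.63, 13.61, 13.64 and 13.93 in TGFb1 arrays and 12.32, 12.16, 12.33 and 12.77 in control arrays. The TGFb1 and valproate arrays lay above all others, and the acriflavine arrays overlapped with control replicate 4 alone. TGFBI rose by 1.31 ± 0.113 with TGFb1 against control (adjusted p = 2.68e-06) and by 1.28 ± 0.122 with valproate against control (adjusted p = 2.48e-06). It fell with acriflavine against TGFb1 (-0.91 ± 0.122, adjusted p = 5.11e-05).

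In the acriflavine arrays TGFBI was still above control, by 0.39 ± 0.122 (adjusted p = 0.023), so its levels ran from TGFb1 (13.7 ± 0.151) and valproate (13.7 ± 0.0176) to acriflavine (12.8 ± 0.0492) and control (12.4 ± 0.26) with a passed test at each step but that between TGFb1 and valproate (-0.03 ± 0.122, 95% interval -0.29 to 0.23). The call against control was lost without control replicate 1 (0.37, adjusted p = 0.0561), 2 (0.31, 0.0717) or 3 (0.37, 0.0584) and without acriflavine replicate 1 (0.41, 0.0537), 2 (0.40, 0.0586) or 3 (0.36, 0.0811), and it passed without both replicates 4 (0.52, adjusted p = 3.04e-05). All 4 TGFBI probe sets rose with TGFb1 against control (1.31 to 1.55) and fell with acriflavine against TGFb1 (-1.08 to -0.76).

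Epithelial and fibroblast markers were read beside the acriflavine results. Of all genes 16.4% rose and 12.3% fell with acriflavine against TGFb1. Of 6 epithelial markers 5 rose and 0 fell with acriflavine against TGFb1, and their mean level was 11.7 to 11.8 in acriflavine arrays and 10.5 to 10.7 in TGFb1 arrays. CDH1, E-cadherin, averaged 9.43 in acriflavine arrays and 6.58 in TGFb1 arrays. Of the 9 fibroblast markers ACTA2, smooth muscle actin, rose by 1.27 and COL3A1 fell by 2.22, and their mean level was 5.44 to 5.57 in acriflavine arrays and 5.55 to 5.80 in TGFb1 arrays. The part of these markers in the SPOCK1 and TGFBI differences was not tested.

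**Figure D2:**
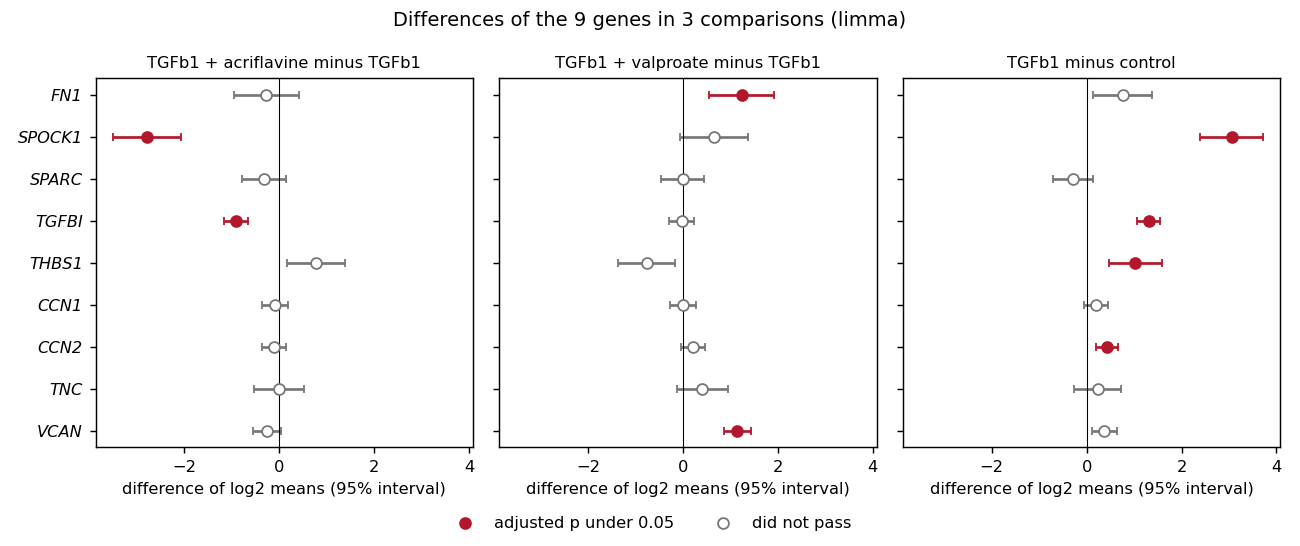
Difference of group means of each gene on the log2 scale with its 95% interval (limma), for acriflavine with TGFb1 minus TGFb1, valproate with TGFb1 minus TGFb1, and TGFb1 minus control; filled points passed an adjusted p of 0.05. SPOCK1 and TGFBI lie left of 0 with acriflavine, FN1 and VCAN right of 0 with valproate, and the THBS1 points of acriflavine and valproate lie on opposite sides of 0, both open.

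THBS1 encodes a thrombospondin that binds CD36 and CD47 and can activate latent TGFb. It read 12.20, 12.15 and 12.07 in acriflavine arrays, 10.76, 10.55 and 10.48 in valproate arrays, 11.04, 11.08, 11.12 and 12.22 in TGFb1 arrays and 9.81, 10.58, 10.02 and 10.96 in control arrays. All TGFb1 arrays lay above all control arrays and above all valproate arrays, and TGFb1 replicate 4 stood with the acriflavine arrays. THBS1 rose by 1.02 ± 0.262 with TGFb1 against control (adjusted p = 0.0198). In the fit without the replicate block this call was lost without control replicate 1 (0.85, adjusted p = 0.065) or control replicate 3 (0.92, adjusted p = 0.0705). Blocking on replicates left the difference of all arrays at 1.02 ± 0.13, and it passed (adjusted p = 9.11e-05). Within replicates THBS1 was higher with TGFb1 than in control by 0.49 to 1.27.

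The 2 agents parted on THBS1. The acriflavine arrays exceeded the valproate arrays by 1.54 ± 0.302 (adjusted p = 0.000907), a 2.91-fold higher level and the only one of the 9 genes to rise in that comparison, and exceeded control by 1.80 ± 0.283 (adjusted p = 0.000204). Against TGFb1 alone, acriflavine was at 0.77 ± 0.283 (adjusted p = 0.054) and valproate at -0.77 ± 0.283 (adjusted p = 0.0698), and neither passed. Of the 5 THBS1 probe sets 5 rose with acriflavine against valproate (1.07 to 1.68), 2 with acriflavine against TGFb1 (0.65 to 0.91) and 3 with TGFb1 against control (0.32 to 1.04), and with valproate against TGFb1 0 passed (-0.77 to -0.42).

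Both differences from TGFb1 passed under other settings. Acriflavine against TGFb1 passed with all arrays when the dimmest 40% of genes were left out (0.77, adjusted p = 0.0427) or probe sets were averaged (0.78, adjusted p = 0.0342), without TGFb1 replicate 4 (1.06, adjusted p = 0.000997), without both replicates 4 (1.06, adjusted p = 3.29e-05), without control replicate 4 (0.77, adjusted p = 0.0305), without control replicate 1 (0.77, adjusted p = 0.0427) and with the replicate number as a block (1.02, adjusted p = 9.4e-05). Valproate against TGFb1 passed without control replicate 4 (-0.77, adjusted p = 0.0403) and without both replicates 4 (-0.48, adjusted p = 0.0195), and with each array centred on its median (-0.85, adjusted p = 0.0349), but not without TGFb1 replicate 4 alone (-0.48, adjusted p = 0.107). THBS1 levels ran from acriflavine (12.1 ± 0.0661) through TGFb1 (11.4 ± 0.572) and valproate (10.6 ± 0.145) to control (10.3 ± 0.525), with no passed test between neighbours. Valproate against control was 0.26 ± 0.283 (adjusted p = 0.594), and it passed without both replicates 4 (0.46, adjusted p = 0.0223).

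CCN1 and CCN2 encode secreted proteins that bind integrins and heparan sulfate. CCN2 read 13.76, 13.68 and 13.76 in acriflavine arrays, 14.09, 14.15 and 13.93 in valproate arrays, 13.96, 13.82, 14.04 and 13.57 in TGFb1 arrays and 13.24, 13.66, 13.34 and 13.41 in control arrays. TGFb1 replicate 4 fell inside the control range, so those groups overlapped, while all valproate arrays lay above all control arrays. CCN2 rose by 0.43 ± 0.109 with TGFb1 against control (adjusted p = 0.0181) and by 0.64 ± 0.117 with valproate against control (adjusted p = 0.000832). Acriflavine against TGFb1 was -0.11 ± 0.117 (95% interval -0.36 to 0.14) and valproate against TGFb1 0.21 ± 0.117 (-0.04 to 0.46).

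The CCN2 call for TGFb1 was lost without control replicate 1 (0.37, adjusted p = 0.0602), control replicate 3 (0.41, 0.0584), TGFb1 replicate 1 (0.39, 0.0554) or TGFb1 replicate 3 (0.37, 0.0535). Without both replicates 4 the difference was 0.52 and passed (adjusted p = 0.00257). Blocking on replicates, with all arrays, left it at 0.43, and it passed (adjusted p = 0.0104). All 3 CCN2 probe sets rose with TGFb1 when each was tested (0.43 to 0.63). Its levels ran from valproate (14.1 ± 0.111) through TGFb1 (13.8 ± 0.204) and acriflavine (13.7 ± 0.0486) to control (13.4 ± 0.18) with no passed test between neighbours. The difference between acriflavine and control (0.32 ± 0.117, adjusted p = 0.0517) passed without control replicate 2 (0.40, adjusted p = 0.0166), TGFb1 replicate 3 (adjusted p = 0.0462) or TGFb1 replicate 4 (adjusted p = 0.017), or both replicates 4 (adjusted p = 0.0234). That between acriflavine and valproate (-0.32 ± 0.125, adjusted p = 0.0588) passed without control replicate 2 (adjusted p = 0.0416) or TGFb1 replicate 4 (adjusted p = 0.0209), or both replicates 4 (adjusted p = 0.0188). With all arrays it passed with the mean of the probe sets (-0.49, adjusted p = 0.00892). Of the 3 CCN2 probe sets 2 fell there when each was tested (-0.62 to -0.32 over all 3), and the brightest was not among them.

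CCN1 passed in 0 of the 6 comparisons, and at an unadjusted p under 0.05 in 0 as well (limma). It read 13.98, 13.88 and 13.85 in acriflavine arrays, 14.09, 13.87 and 14.05 in valproate arrays, 14.12, 14.19, 14.01 and 13.69 in TGFb1 arrays and 13.80, 14.04, 13.84 and 13.52 in control arrays. All groups overlapped, and replicate 4 was the lowest array of both groups that had one. Its intervals allow modest changes: -0.37 to 0.18 for acriflavine against TGFb1, -0.27 to 0.28 for valproate against TGFb1 and -0.05 to 0.46 for TGFb1 against control. Group means were 13.9 ± 0.0649 in acriflavine and 13.8 ± 0.214 in control arrays, and the valproate and TGFb1 means differed by 0.0013.

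Acriflavine and valproate were set against each other over all 9 genes. THBS1 rose and FN1 (-1.51 ± 0.338, adjusted p = 0.00254), SPOCK1 (-3.46 ± 0.357), TGFBI (-0.89 ± 0.13) and VCAN (-1.41 ± 0.143) fell in acriflavine against valproate arrays, where 35.5% of all genes changed, 18.9% rising and 16.6% falling. The brightest CCN2 probe set did not pass there (-0.32, adjusted p = 0.0588), but 2 of the 3 CCN2 probe sets fell when each was tested. Against control, 2 genes rose and 1 fell with acriflavine, where 31.4% of all genes changed, 17.6% rising and 13.8% falling. These were TGFBI and THBS1, and SPARC. With valproate 5 rose and 0 fell, where 25.4% of all genes changed, 13.1% rising and 12.4% falling (at an unadjusted p under 0.05, 6 were higher and 0 lower), and these 5 were FN1, SPOCK1, TGFBI, CCN2 and VCAN.

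**Figure D3:**
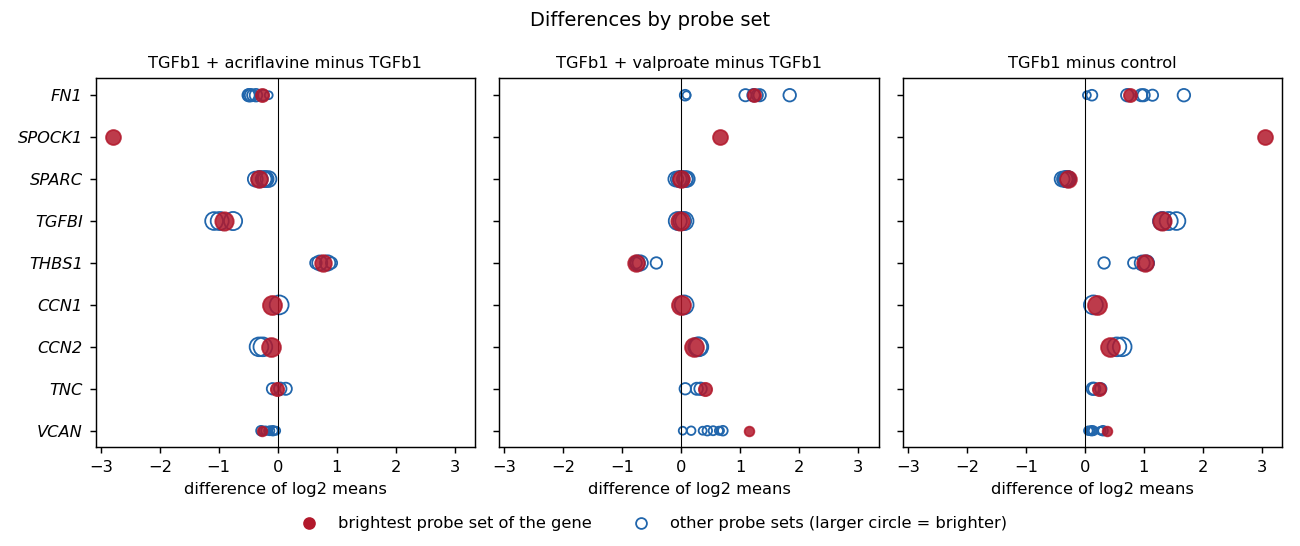
Difference of group means on the log2 scale for every single-gene probe set of the 9 genes, in 3 comparisons; filled circles are the brightest probe set of the gene, open circles the others, and larger circles are brighter. With TGFb1 those of FN1 spread from 0.03 to 1.68, those of THBS1 from 0.32 to 1.04 and those of TGFBI from 1.31 to 1.55, and with valproate those of FN1 from 0.07 to 1.84.

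Receptors for these proteins moved in both directions. Of all genes 11.1% changed with TGFb1 against control, 28.7% with acriflavine against TGFb1 and 21.7% with valproate against TGFb1. Of 19 measured receptor genes 5 rose and 2 fell with TGFb1 against control, 3 rose and 6 fell with acriflavine against TGFb1, and 9 rose and 1 fell with valproate against TGFb1, with list medians of 0.07, -0.09 and 0.28 in turn. ITGA5, a chain of the main fibronectin receptor, rose by 1.64 with TGFb1, and ITGB3, a chain of the vitronectin receptor, by 1.33, while the heparan sulfate carrier SDC4 fell by 0.91 and the laminin receptor chain ITGA6 by 0.46. With acriflavine ITGB3 fell by 1.74 and ITGAV, its partner chain, by 1.36, and CD47, the thrombospondin receptor, rose by 0.83 and SDC4 by 0.75. ITGA2, a chain of a collagen receptor, and ITGA6 rose with valproate by 0.76 and 0.75, and the syndecan SDC1 fell by 0.35.

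Genes that assemble, crosslink or cut the matrix showed 8 rises and 1 fall among 21 measured with TGFb1, 1 rise and 8 falls with acriflavine against TGFb1, and 5 rises and 4 falls with valproate against TGFb1. The list medians were 0.31, -0.12 and -0.01. The shares of all genes that changed were 11.1%, 28.7% and 21.7% in turn. HTRA1, a secreted protease, rose by 2.16 and LTBP2, a fibrillin-related protein, by 1.67 with TGFb1, and ADAMTS1, a protease that cuts versican, fell by 0.83. ADAMTS1 rose by 1.66 with acriflavine, which lowered HAS2, a hyaluronan synthase (-1.79), and LTBP2 (-1.28). With valproate TGM2, a transglutaminase that crosslinks fibronectin, rose by 1.42 and LTBP1, which stores latent TGFb in the matrix, by 1.02, and the collagen chaperone SERPINH1 fell by 1.01 and the hyaluronan synthase HAS3 by 0.82.

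**Figure D4:**
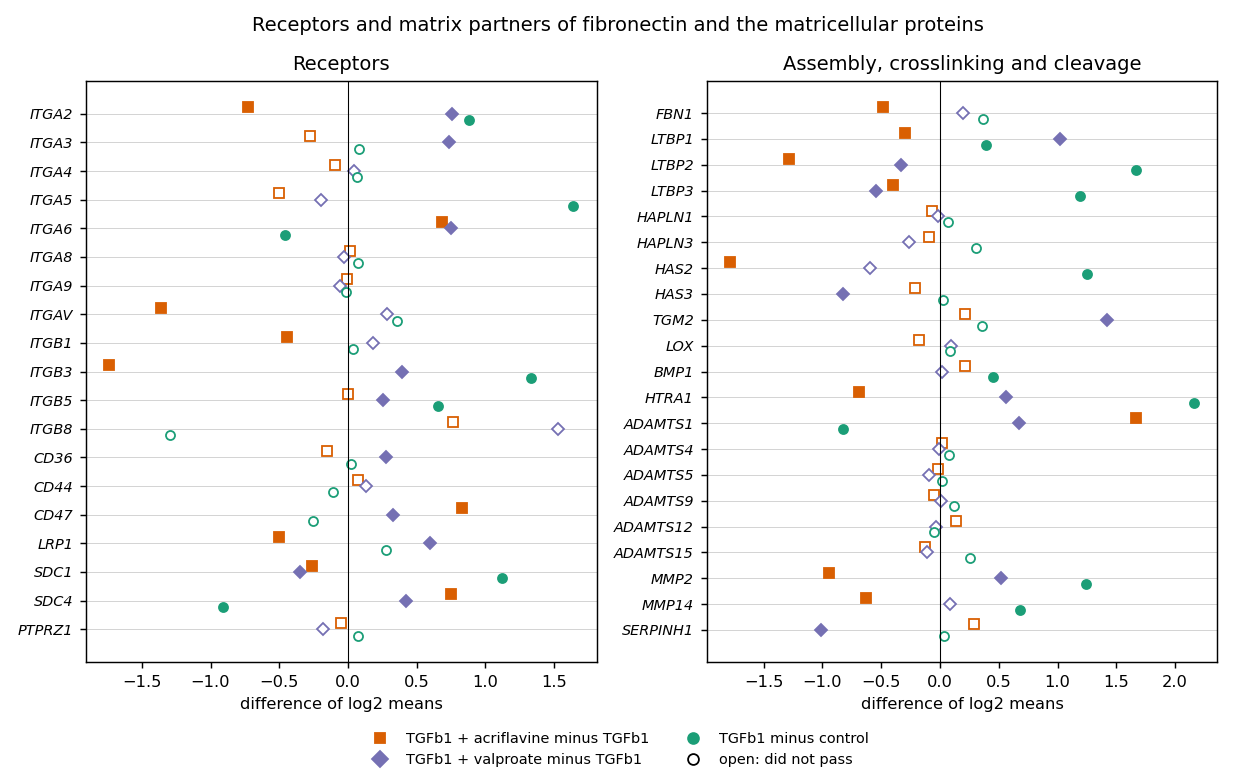
Difference of group means on the log2 scale for each measured receptor (left) and each gene of matrix assembly, crosslinking and cleavage (right); squares give acriflavine with TGFb1 minus TGFb1, diamonds valproate with TGFb1 minus TGFb1 and circles TGFb1 minus control, filled where the gene passed. ITGB3, LTBP2 and HAS2 have circles right of 0 and squares left of 0, and SDC4 and ADAMTS1 the other way round.

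Of 24 other matricellular and related genes 2 rose and 1 fell with TGFb1, 2 rose and 3 fell with acriflavine against TGFb1, and 5 rose and 1 fell with valproate against TGFb1, with medians of 0.04, -0.03 and 0.0021. In these comparisons 11.1%, 28.7% and 21.7% of all genes changed. COMP, a thrombospondin, rose by 1.29 with TGFb1 and the brain proteoglycan BCAN by 0.33, while CCN5, a relative of CCN2, fell by 1.32. CCN5 rose with valproate by 1.50, and the fibulin FBLN5 by 0.63, and COMP fell by 0.28. With acriflavine BCAN rose by 0.50 and FBLN1 by 0.45, and SPOCK3 fell by 0.28 and COMP by 0.27.

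Other targets of YAP and TEAD moved in both directions. Their counts stand beside 11.1% of all genes for TGFb1, 28.7% for acriflavine and 21.7% for valproate. Of 20 measured, 5 rose and 3 fell with TGFb1, 9 rose and 2 fell with acriflavine against TGFb1, and 3 rose and 1 fell with valproate against TGFb1, with medians of -0.06, 0.30 and -0.00014. The ectonucleotidase NT5E (1.17) and IGFBP3 (0.76) rose with TGFb1, and MYOF (-0.62) and CRIM1 (-0.61) fell. F3, tissue factor, rose by 4.18 and AMOTL2 by 1.07 with acriflavine, while DOCK5 fell by 0.57 and RBMS3 by 0.39. With valproate ANKRD1, a nuclear ankyrin repeat protein, rose by 1.63 and ASAP1 by 0.55, and MYOF fell by 0.58.

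Among 13 regulators 3 rose and 1 fell with TGFb1, where 11.1% of all genes changed (28.7% with acriflavine and 21.7% with valproate against TGFb1). The inhibitory SMAD7 (1.31) rose, as did MRTFA (0.63) and SRF (0.57), which act together on actin-responsive genes, and SMAD3 fell by 0.44. With acriflavine 0 rose and 5 fell (at an unadjusted p under 0.05, 1 was higher and 8 lower), among them MRTFA (-0.75), SMAD7 (-0.70) and SRF (-0.44). With valproate 0 rose and 5 fell (0 higher and 6 lower at an unadjusted p under 0.05), among them TEAD4 (-0.71), TEAD2 (-0.63) and SRF (-0.37). YAP1 did not pass with acriflavine (0.06) or valproate (-0.30) against TGFb1, or with TGFb1 against control (-0.19), nor did WWTR1, which encodes TAZ (-0.32, 0.14 and -0.36). Against TGFb1, SMAD3 was at 0.06 with acriflavine and 0.07 with valproate and did not pass. Against control, YAP1 fell with valproate (-0.49) but not acriflavine (-0.13), and WWTR1 with acriflavine (-0.69) but not valproate (-0.22). SMAD3 fell against control with acriflavine (-0.38) and valproate (-0.37). In acriflavine against valproate arrays YAP1 rose by 0.36 and WWTR1 fell by 0.47. The list medians were -0.32 for acriflavine, -0.24 for valproate and -0.04 for TGFb1 against control.

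The genes most like each member were sought by Pearson correlation over the 14 arrays among the 10869 other genes in the brightest 60%. These arrays fall into 4 groups and share those differences, so the values are a description. P4HA3, a subunit of a collagen prolyl hydroxylase, was closest to SPOCK1 (r = 0.987), before CTSC (0.985) and SAMD13 (0.980), and ADAM19, a membrane metalloprotease, was closest to TGFBI (0.982), before TMEM51 (0.981) and LTBP2 (0.974). FN1 was followed most closely by PLA2R1 (0.983), EXTL2 (0.975) and FKBP7 (0.969), and VCAN by LTBP1 (0.977), UXS1 (0.974) and TLN2 (0.967). THBS1 had LHX1 (0.971), SPATS2L (0.960) and BTF3 (0.959). SPARC had SLC12A7 (0.948), NBAS (0.928) and LPCAT3 (0.908), and CCN1 had RNF126 (0.932), FZR1 (0.927) and SCAMP2 (0.916). The closest to CCN2 were SLC26A2 (0.918), PIK3CD (0.915) and ATOSB (0.908), and to TNC RELL1 (0.908), CEP170 (0.892) and SPCS3 (0.880).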

How the data were processed

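RNA of 14 PANC-1 samples (200 ng each) was read on Affymetrix 3-prime arrays. The authors deposited intensities on a log2 scale, from RMA in affy 1.44.0, per the submitters' processing notes. Which arrays were normalized together is not given in the sources used here, and a step that RMA applies to all arrays can spread a shift of a few arrays over the rest. Values ran from 2.97 to 15.1 with 0 missing, and 0 value columns went unmapped.

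Of 49193 probe sets, 44898 named 1 gene, 1825 several and 2470 were unnamed here. Gene identifiers of 44871 matched a RefSeq table, which changed 0 symbols. For each of 18129 genes, 11714 of which had several probe sets, the brightest by mean level was kept, however dim. Group means of the 14 arrays were modelled together in limma 3.58.1, by lmFit and then eBayes, under R 4.3.3. In each of 6 comparisons p-values were adjusted by Benjamini-Hochberg over all genes, with an adjusted p of 0.05 as the threshold. The fit was tested on data simulated with independent noise for each gene and array. Those data held no replicate pairing and no arrays that stand apart, so the test does not cover these features. Python 3.11.15 and matplotlib 3.10.9 made the figures.

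All 9 members are reported. From each gene list, in each of the comparisons of acriflavine and of valproate with TGFb1 and of TGFb1 with control, up to 2 genes with the largest rise and 2 with the largest fall that passed are named, with YAP1, WWTR1, SRF and SMAD3 whatever their result, and the 3 genes most correlated with each member. The members, lists and alternatives were chosen with earlier results of these data known.

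Same-numbered replicates were taken as pairs where their deviations from the group means correlated over 0.1 in every replicate. For TGFb1 and control the values were 0.318, 0.342, 0.419 and 0.674 for replicates 1 to 4. For acriflavine and TGFb1 they were 0.107, 0.334 and 0.261 over all genes, but -0.00047, 0.398 and 0.368 over the brightest 60%, so that pairing is weak. No other comparison was paired by this rule. Blocked values stand beside the results they change. Alternatives were a limit on brightness, other choices of probe set, other scalings, another variance model, array weights, the replicate block, fits restricted to the groups compared, a term for replicate 4, stricter thresholds and each array left out.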

Additional observations from a re-analysis of the deposited data

Results flagged for a closer look

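In a group of 4 to 10 arrays, an array was singled out where its gap to the nearest other array, as a share of the group's whole range, passed the critical value of Dixon's test at the 95% level. Of 18 such tests, 9 genes in the TGFb1 and control groups, 2 passed, and chance passes about 1 in 20. TGFb1 replicate 4 stood apart for THBS1, at 12.22 against 11.12 in the nearest TGFb1 array (ratio 0.937), and for TGFBI, at 13.93 against 13.64 (ratio 0.906). The THBS1 difference between TGFb1 and control was 1.27 within replicate 4 and 0.94 over replicates 1 to 3, and that of TGFBI was 1.16 and 1.35. Acriflavine against TGFb1 was 1.06 for THBS1 without this array, against 0.77 with it.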

How the results depend on the processing

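Counts of the 9 genes that passed are given here by setting, beside 2 for acriflavine against TGFb1, 2 for valproate against TGFb1, 5 for acriflavine against valproate, 3 for acriflavine against control, 5 for valproate against control and 4 for TGFb1 against control. Array weights gave 5, 6, 8, 7 and, for TGFb1 against control, 8, with SPARC passing at 0.33 (adjusted p = 0.0293) for valproate against TGFb1. Of all genes 50.9%, 40.9%, 49.4%, 45.8% and 29.1% passed with array weights in the same comparisons. For valproate against TGFb1 the count was 1 without the dimmest 40% of genes (which removes VCAN), where 31.3% of the kept genes passed. It was also 1, with FN1 lost, with both groups fitted alone (14.6% of all genes) or at an adjusted p of 0.01 (14.03%). It was 4 with both groups alone and the replicate block (18.1%). The count was 5 with the replicate block (29.5%), with a term for replicate 4 (31.2%) or without the replicates 4 (32.99%). These shares stand beside 21.7% of all genes with none of these changes. For acriflavine against control the count was 1 at an adjusted p of 0.01 or with a minimum fold of 2, 6 with the replicate block or the term for replicate 4, and 7 without the replicates 4 or with both groups alone and the block. In the same order of settings 22.5%, 5.10%, 37.0%, 38.5%, 39.2% and 42.2% of all genes passed. TGFb1 against control, a paired comparison, gave 6 with the replicate block (FN1 and VCAN joined, 18.3% of all genes passing). It gave 2 at an adjusted p of 0.01 (6.16%) or with both groups alone (5.62%). Acriflavine against valproate gave 8 with both groups alone, with the block (45.7%) or without it (47.7%). Acriflavine against TGFb1, weakly paired, gained THBS1 with the block (1.02, adjusted p = 9.4e-05, 35.5% of all genes passing) and gave 1 with a minimum fold of 2 (4.88%). With 1 array left out the counts ran from 2 to 3 for acriflavine against TGFb1, 2 to 4 for valproate against TGFb1, 5 to 6 for acriflavine against valproate, 1 to 5 for acriflavine against control, 5 to 6 for valproate against control and 2 to 4 for TGFb1 against control. The causes were not tested. Valproate and TGFb1 arrays share replicate numbers but were not paired by them (correlations of 0.015, -0.450 and -0.419), and with the replicate block SPOCK1 (0.98), THBS1 (-0.52) and TNC (0.61) passed there. For valproate against control THBS1 passed with the replicate block (0.50, adjusted p = 0.017), the term for replicate 4 (0.50, 0.0128), both groups alone with the block (0.46, 0.0479) and array weights (0.42, 0.0493).

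Signs turned for FN1 (-0.27 with all arrays), VCAN (-0.26) and TNC (-0.0096) in acriflavine against TGFb1 and for SPARC (-0.0054), TGFBI (-0.028) and CCN1 (0.0013) in valproate against TGFb1, none of which had passed. With 1 array left out, FN1 (acriflavine) ran from -0.48 to 0.10, TNC (acriflavine) from -0.15 to 0.14, and with valproate SPARC from -0.12 to 0.15, TGFBI from -0.059 to 0.047 and CCN1 from -0.10 to 0.067. With the replicate block or the term for replicate 4, FN1 was 0.0015 and TNC 0.20 with acriflavine, and SPARC 0.17, TGFBI 0.072 and CCN1 -0.10 with valproate. Without the replicates 4, or with both groups alone and the replicate block, these were 0.10, 0.14, 0.15, 0.047 and -0.10. Array weights gave FN1 0.092, TNC 0.040 and VCAN 0.016 with acriflavine and TGFBI 0.036 and CCN1 -0.078 with valproate. The mean of probe sets gave TNC 0.020 (acriflavine) and SPARC 0.0077 (valproate), repeated quantile normalization SPARC 0.0082 and CCN1 -0.032, centring on the median CCN1 -0.083, and leaving out _x_at probe sets TGFBI 0.052, these last with valproate. SPOCK1 and TGFBI for TGFb1 against control, and SPOCK1 for acriflavine against TGFb1, kept direction and call under every setting tried. So did FN1, SPOCK1 and THBS1 for acriflavine against valproate, THBS1 for acriflavine against control, and FN1, SPOCK1 and TGFBI for valproate against control. VCAN kept direction and call for valproate against TGFb1, against control and against acriflavine under every setting that kept the gene.

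Of all 18129 genes, 2009 changed with TGFb1 against control, but 5268 with array weights, 1018 with both groups alone, 3319 with the replicate block, 3141 without the replicates 4, 3235 without TGFb1 replicate 4, 3694 with the term, 1117 at 0.01 and 321 at 2-fold. For acriflavine against TGFb1 5205 became 9236 with array weights and 884 at 2-fold. For valproate against TGFb1 3927 became 7417, 5980 without the replicates 4, 2544 at 0.01 and 627 at 2-fold, and the share of calls that were rises was 53.0%, but 35.9% with arrays centred on their median. For valproate against control 4608 became 7172 with array weights, 3064 at 0.01 and 821 at 2-fold, and the share was 51.4%, or 41.0% when centred. At 2-fold, acriflavine against valproate gave 1596 of 6441 and acriflavine against control 925 of 5695. With each of 44898 probe sets tested, 4478 to 15352 passed. Arrays have no read depth, and VCAN lies among the dimmest 40% of genes.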
